A study of Oryza sativa with 4 samples.

Results

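Enzymes of amino acid and nitrogen metabolism were examined in rice panicles in which RFL had been targeted, through 95 cDNA probes among 21495 non-control probes on each array. The targeted gene corresponds in rice to LEAFY, a transcription factor of floral meristem identity. Members were chosen by words in the probe description alone: aminotransferase or transaminase, glutamate decarboxylase, dehydrogenase or synthase, glutamine synthetase, asparagine synthetase, asparaginase, nitrate and nitrite reductase, proline, tryptophan, methionine and cysteine synthases, and arginase. Descriptions holding proline-rich, hydroxyproline or transporter were dropped, and no arginase cDNA was found. The wording also admitted some cDNAs outside amino acid synthesis, among them S-adenosylmethionine synthetase, gamma-glutamylcysteine synthetase, a tRNA-glutamine synthetase, a repetitive proline rich protein and a proline iminopeptidase. The rule itself uses no measured value. A cDNA is named by its accession and by the described product, which is often the nearest homologue from another species. Cultivar TP309 was used throughout, and panicles were at the branching stage. The groups were panicles expressing antisense RFL RNA, panicles carrying a dsRNAi construct against RFL, and wild type panicles without either. Each construct was set against wild type RNA on 2 arrays with the dyes exchanged. RNA was pooled, and the promoter of the constructs and the number of transgenic lines were not given in the sources used here.

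Plants reduce nitrate through nitrate and nitrite reductase to ammonium, which glutamine synthetase and glutamate synthase build into glutamine and glutamate. Aminotransferases then pass the amino group of glutamate to keto acids, and asparagine synthetase makes the amide in which nitrogen is carried and stored. Glutamate decarboxylase draws glutamate off to gamma-aminobutyrate (GABA), and ornithine aminotransferase links arginine breakdown to glutamate and proline. In a growing panicle these routes supply the nitrogen for new branches and flowers.

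Of the 95 cDNAs, 83 passed the filter on dim probes and were tested. The other 12 were well above background on at most 1 array. They were a cDNA described as OsGAD2 (AK070858), the rice cytosolic and chloroplastic glutamine synthetases GS1 (AK109397) and GS2 (AK063706), an asparaginase (AK058733) and the nitrate reductases AK107363 and AK102178. They also included the aminotransferases AK073635 (branched-chain), AK107237 (alanine), AK109385 (phosphoserine), AK107310 (histidinol-phosphate) and AK060537 (nicotianamine), and the methionine synthase AK108840. All ratios below are on the log2 scale, transgenic panicles over wild type. A mean over both constructs is given ± SE over n = 4 arrays, with limma's adjusted p over all 17997 probes tested. Each array measures 1 RNA pool per channel, and the independence of the antisense pools is not settled by the labels, so p-values measure a spread that may be technical. The SE leaves out how far the constructs lie apart. In tissue RNA of this kind, fewer cells of a type and less RNA per cell cannot be told apart. No probe description named RFL (0 of 21495), so the targeted gene was not checked here.

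Transgenic channels had 16106 to 18191 probes well above background, and wild type channels had 14722 to 17270. Log2 ratios correlated within constructs across genes at 0.933 (antisense) and 0.832 (dsRNAi). Between 42 and 47 of 51 listed meristem and MADS-box probes were well above background per channel, beside 14722 to 18191 of all 21495 probes. Of 34 listed leaf and photosynthesis probes, 23 to 30 were. Since most probes of every kind passed, these counts do not identify the tissue. Antisense and dsRNAi arrays also differed in the version of the extraction software, so that batch and construct cannot be told apart.

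In the mean of both constructs, 17 of the 83 tested cDNAs rose and 28 fell. Over all tested probes 20.5% rose and 21.3% fell at the same threshold. At 2-fold or more, 5 members rose and 9 fell, against 3.52% and 4.62% of all probes. The median log2 ratio of the members was -0.091, and that of all probes was -0.0016. All 4 arrays gave the same sign for 38 members, against 44.5% of all probes. Of the 45 called members 35 were among them, against 6199 of the 7508 probes called over the array (82.6%). With antisense alone 20 members rose and 27 fell, against 18.9% and 18.3% of all probes. With dsRNAi alone 9 rose and 22 fell, against 11.2% and 14.6%. That count dropped to 19 (7 up, 12 down) without dsRNAi replicate 2, and median centring in place of loess gave 2 up and 1 down. The same centring left 13 calls in the mean (5 up, 8 down) and 10 with antisense (4 up, 6 down). Both constructs passed in the same direction for 23 of the 45, of which 7 rose and 16 fell. Another 20 passed with 1 construct only, and 2 passed in the mean but with neither construct alone. Counts by enzyme role below are of the mean, rest on few cDNAs each, and stand against the 20.5% and 21.3% of all probes. With construct as a random block 22 members passed in the mean (7 up, 15 down). With each pair of arrays averaged 0 passed in limma, and 28 had an unadjusted p under 0.05.

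**Figure D1:**
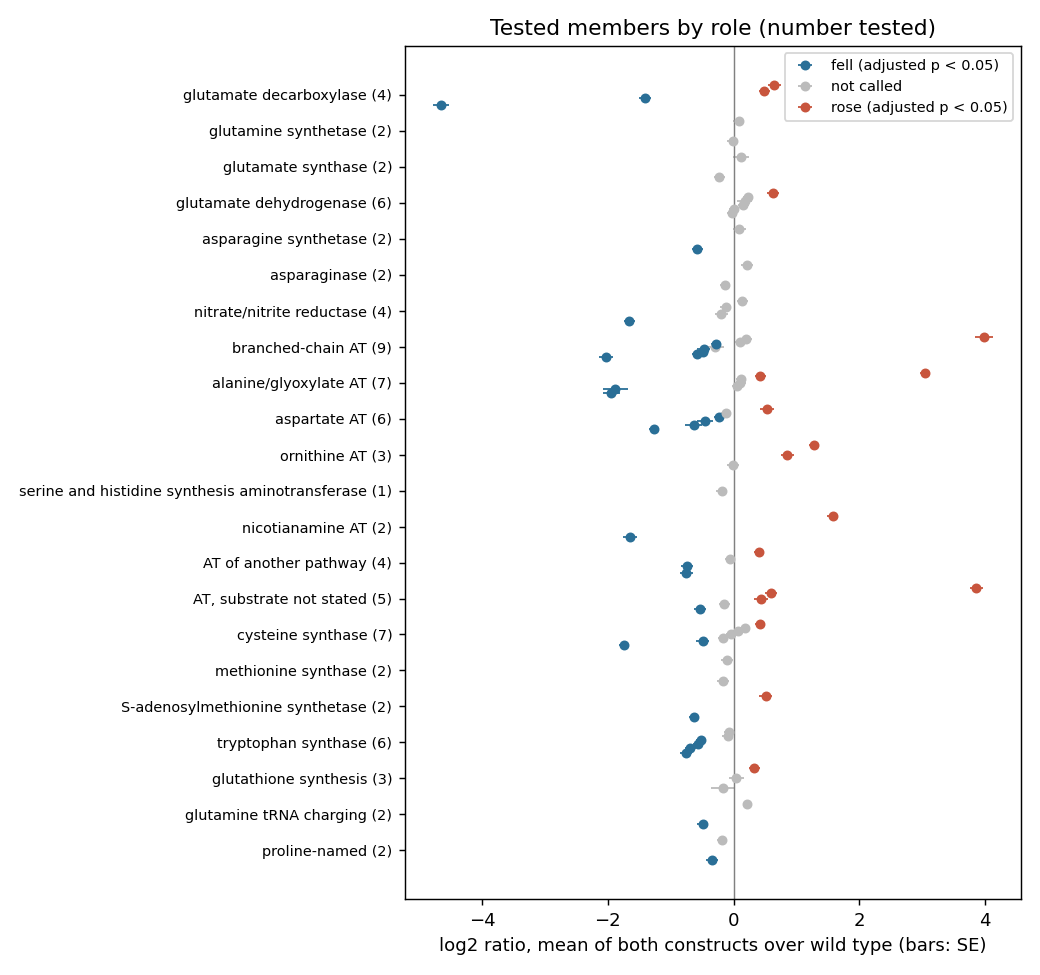
Mean log2 ratio of both constructs over wild type for the 83 tested cDNAs (horizontal axis), grouped by role with the number tested in brackets; AT stands for aminotransferase, points are cDNAs and bars are limma's SE over n = 4 arrays. Red points rose, blue points fell and grey points did not pass. A glutamate decarboxylase at -4.66 and 3 aminotransferases above 3 stand farthest from 0, while glutamine synthetase and glutamate synthase hold grey points only.

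The entry of nitrogen was represented by nitrate reductase and nitrite reductase. A nitrate reductase cDNA matched to barley (AK102363) had ratios of -1.83 and -1.75 on the antisense arrays and -1.43 and -1.62 on the dsRNAi arrays. All 4 arrays lay close together below 0, and the mean was -1.66 ± 0.08 (adjusted p = 4.06e-06), a 3.15-fold lower level. It was the only one of 4 tested cDNAs of this role to pass. Ferredoxin-nitrite reductase, which carries out the second step in the plastid, stood at 0.14 ± 0.09 (AK064778, adjusted p = 0.252) and -0.19 ± 0.11 (AK061893, adjusted p = 0.194).

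For the assimilation of ammonium, none of 2 tested glutamine synthetase and 2 tested glutamate synthase cDNAs passed in the mean. A glutamine synthetase I match (AK099882) gave -0.15, 0.077, -0.12 and 0.14 (antisense replicates 1 and 2, dsRNAi replicates 1 and 2; this order holds for all sets of 4 below). Its values fell on both sides of 0 in each construct, and the mean was -0.013 ± 0.088. The other tested glutamine synthetase (AK063913, 0.078 ± 0.085, adjusted p = 0.504) had 0 wild type spots well above background. The cDNAs described as the rice cytosolic and chloroplastic glutamine synthetases were too dim to be tested. Whether the glutamine synthetase I match takes part in ammonium assimilation was not tested, so this step is poorly covered here. The NADH-dependent glutamate synthase cDNAs stood at 0.12 ± 0.13 (AK105755, adjusted p = 0.509) and -0.23 ± 0.09 (AK070485, adjusted p = 0.0895). The latter fell by 0.49 with antisense alone (adjusted p = 0.0221). AK105755 passed at 0.32 without dsRNAi replicate 1 (adjusted p = 0.0362) and stood at -0.083 without dsRNAi replicate 2.

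Glutamate dehydrogenase, which can run toward ammonium release or fixation, had 1 rise among 6 tested cDNAs. This was a match to maize GDH1 (AK065301), with 0.41, 0.78, 0.51 and 0.81 and a mean of 0.63 ± 0.10 (adjusted p = 0.00152). The 2 constructs overlapped. Another glutamate dehydrogenase (AK071839) moved in opposite directions, at 0.32 and 0.29 on the antisense arrays and at -0.31 and -0.30 on the dsRNAi arrays. The difference of -0.61 passed (adjusted p = 0.0332), while neither construct did alone (adjusted p = 0.0615 and 0.0787). Its wild type channels were higher by 0.75 on the dsRNAi arrays (adjusted p = 0.00164). The transgenic channels differed by 0.14, without passing (adjusted p = 0.659).

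Of 2 asparagine synthetase cDNAs, AK100247 fell on every array (-0.49, -0.60, -0.45 and -0.77). Its mean was -0.58 ± 0.09 (adjusted p = 0.00137). AK101821 stood at 0.093 ± 0.10 (adjusted p = 0.515). Asparaginase releases the stored nitrogen again. Neither a soybean match (AK068693, -0.14 ± 0.08) nor a glycosylasparaginase match from a moth (AK063296, 0.21 ± 0.09) passed (adjusted p = 0.215 and 0.11). Without dsRNAi replicate 2 the latter passed at 0.31 (adjusted p = 0.0476).

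The largest fall among the members was in glutamate decarboxylase, the enzyme that makes GABA. AK071556, described as OsGAD2, had log2 ratios of -5.76, -5.16, -3.60 and -4.10. Its normalized log2 intensity in wild type was 16.46 and 15.28 on the antisense arrays and 13.85 and 14.13 on the dsRNAi arrays, while the transgenic channels lay between 10.03 and 10.70. Every transgenic channel was thus far below its wild type partner. The mean was -4.66 ± 0.13 (adjusted p = 4.32e-07), or at least 25.2-fold lower. The wild type spot was saturated on antisense replicate 2, so the fall there, and with it the mean fall, is a lower bound. Without that array the ratio was -4.81.

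OsGAD1 (AK061977) fell as well, with -1.51, -1.34, -1.55 and -1.24. Both constructs gave like values, and the mean was -1.41 ± 0.09 (adjusted p = 1.29e-05), or 2.66-fold lower. The remaining tested cDNAs of the role went the other way. AK068340, also described as OsGAD2, had 1.04, 1.08, 0.50 and -0.01, with a mean of 0.65 ± 0.10 (adjusted p = 0.00149). AK101171, matched to a tobacco glutamate decarboxylase, had 1.20, 1.38, -0.18 and -0.46, so that it rose with antisense (adjusted p = 0.000144) and was lower, without passing, with dsRNAi (adjusted p = 0.103). The cDNAs carrying the OsGAD2 description therefore disagreed in direction, and whether they stem from the same gene was not tested. Of the steps after GABA, a match to Arabidopsis At3g22200, there a GABA transaminase, fell by 0.53 ± 0.09 (AK103274, adjusted p = 0.00257). Succinic semialdehyde dehydrogenase, the next enzyme, rose by 0.33 ± 0.08 (AK060831, adjusted p = 0.0106).

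Branched-chain aminotransferases, which act at the last step of leucine, isoleucine and valine synthesis and the first of their breakdown, had 1 rise and 5 falls among 9 tested cDNAs, against 20.5% and 21.3% of all probes. The rise was AK105963, matched to Arabidopsis bcat5, with 5.06, 5.95, 2.41 and 2.50. Wild type log2 intensities were 7.01 and 6.04 on the antisense arrays and 9.27 and 9.0 on the dsRNAi arrays, against 11.50 to 12.06 in the transgenic channels. Its mean was 3.98 ± 0.14 (adjusted p = 9.8e-07), or 15.8-fold higher as measured. The wild type spot was not well above background on antisense replicate 1. On antisense replicate 2 it passed that check, but at the lower intensity of 6.04. Both limit the antisense level, and the deposited log ratio gave 5.07. Other matches to the same Arabidopsis gene did not rise: AK106376 fell by 0.58 ± 0.08 (adjusted p = 0.000886) and AK108687 stood at 0.11 ± 0.08 (adjusted p = 0.31).

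AK067076, matched to a branched-chain aminotransferase-like protein of Arabidopsis, showed the largest fall of this role. It gave -1.47, -1.91, -2.11 and -2.63, with every array below 0, and a mean of -2.03 ± 0.12 (adjusted p = 7.98e-06), or 4.09-fold lower. The deposited log ratio gave -2.66. Smaller falls were seen for AK104978 (-0.49 ± 0.08), AK062472 (-0.48 ± 0.10) and AK072756 (-0.28 ± 0.08). AK104978 shares the description of AK067076, which says only branched-chain aminotransferase-like (At5g57850). The substrate of neither was tested, so both count among the falls of this role by description only. For AK062472, matched to potato BCAT2, the antisense arrays were at -0.74 and -1.24 and the dsRNAi arrays at 0.12 and -0.04.

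Alanine and glyoxylate aminotransferases include the photorespiratory enzymes that turn glyoxylate into glycine. Which cDNAs of this role belong to that route was not tested. An alanine:glyoxylate aminotransferase-like cDNA (AK060423) rose, with 4.05, 4.21, 2.00 and 1.90. The 2 arrays of each construct nearly coincided, and the antisense pair lay far above the dsRNAi pair. The mean was 3.04 ± 0.08 (adjusted p = 4.04e-07), or 8.21-fold higher. A match to the Arabidopsis homologue AGT2 (AK105642) rose by 0.43 ± 0.09 (adjusted p = 0.00651), through the antisense arrays (0.87 and 0.74, against 0.21 and -0.12 with dsRNAi).

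Alanine aminotransferase, which exchanges amino groups between alanine and glutamate, fell through 2 cDNAs with the same rice description. AK102488 had -3.24, -2.43, -0.37 and -1.48, a mean of -1.88 ± 0.19 (adjusted p = 0.000171). Its adjusted p was 0.0513 under a random block for construct. AK059063 had -3.21, -2.37, -1.06 and -1.13, a mean of -1.94 ± 0.13 (adjusted p = 1.95e-05). Antisense values lay below dsRNAi values for both, without overlap. The other 3 tested alanine aminotransferase cDNAs did not pass in the mean, with ratios of 0.12 (AK107029), 0.11 (AK060481) and 0.047 (AK067732). AK107029 rose with dsRNAi alone (0.41, adjusted p = 0.0338). AK067732, described as a putative alanine aminotransferase of Arabidopsis (At1g23310), rose with antisense alone (0.34, adjusted p = 0.0484). The difference between constructs passed for both, at 0.57 and -0.59 (adjusted p = 0.0493 and 0.0446).

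Aspartate aminotransferase, which makes aspartate from oxaloacetate and glutamate, had 1 rise and 4 falls among 6 tested cDNAs, beside the same 20.5% and 21.3%. AK103586, from rice, gave -1.62, -1.51, -0.87 and -1.06. All arrays were below 0, and the mean was -1.26 ± 0.08 (adjusted p = 1.47e-05), or 2.40-fold lower. Both cDNAs matched to a plastidic aspartate aminotransferase of proso millet fell, by 0.45 ± 0.12 (AK072426) and 0.63 ± 0.13 (AK105059). The rise was AK067702, with 0.74, 0.36, 0.72 and 0.30 and a mean of 0.53 ± 0.11 (adjusted p = 0.00515). It is counted here only through its description, a putative aspartate aminotransferase of Arabidopsis (At1g80360), and its substrate was not tested.

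Ornithine aminotransferase converts ornithine, a product of arginine breakdown, toward glutamate and proline. Both cDNAs matched to the grapevine enzyme rose. AK099445 gave 1.58, 1.77, 0.93 and 0.87, a mean of 1.28 ± 0.08 (adjusted p = 1.28e-05), or 2.43-fold higher. AK108010 gave 1.02, 1.48, 0.36 and 0.56, a mean of 0.85 ± 0.10 (adjusted p = 0.000345). In each, the antisense arrays were above the dsRNAi arrays. Acetylornithine transaminase, on the synthetic side, stood at -0.011 ± 0.099 (AK068200, adjusted p = 0.943).

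**Figure D2:**
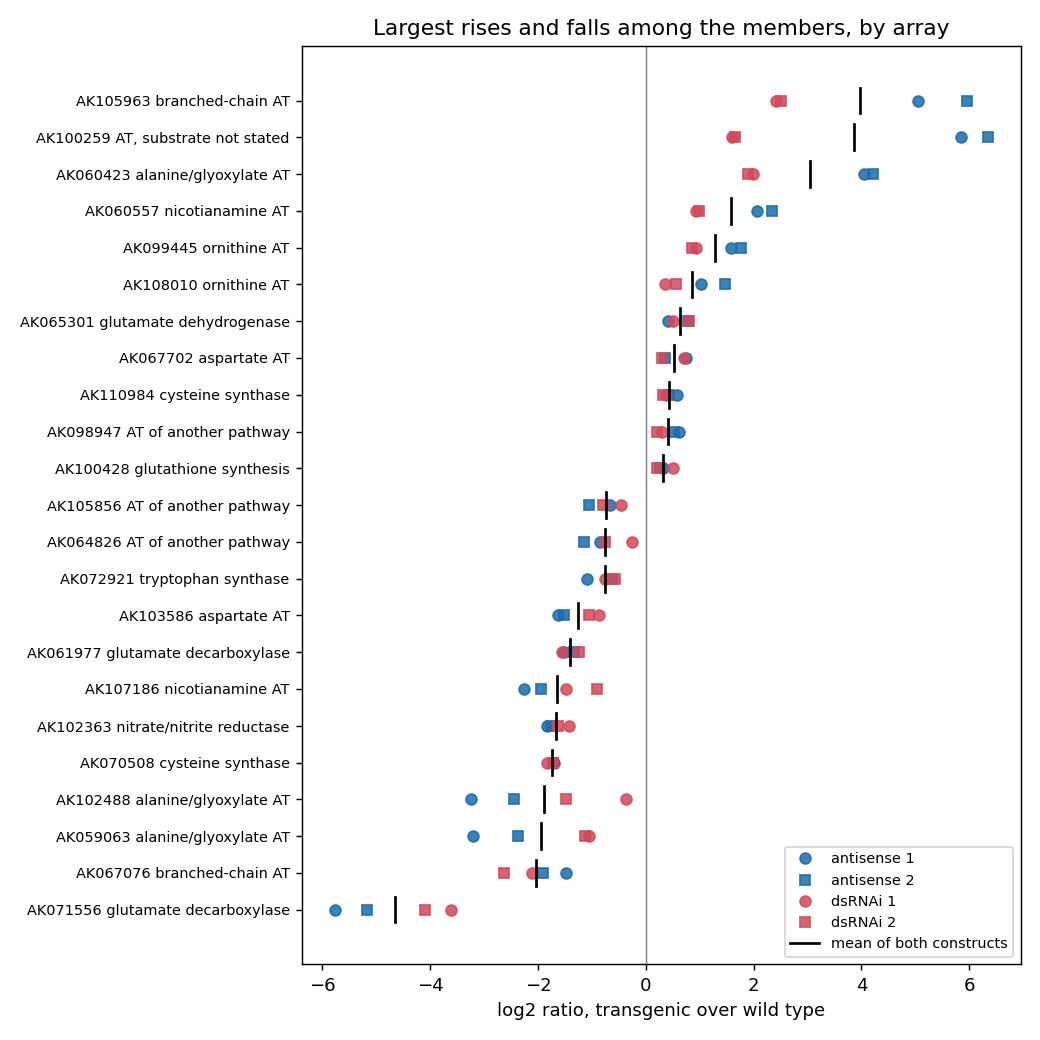
Log2 ratio of transgenic over wild type on each of the 4 arrays (horizontal axis) for the 11 largest rises and 12 largest falls that passed in the mean with the same sign on all arrays; blue marks antisense, red dsRNAi, circles replicate 1, squares replicate 2, AT stands for aminotransferase and black bars are the mean of both constructs. Red and blue points separate widely for the largest rises (5.84 and 6.34 against 1.61 and 1.65 for AK100259) and lie together for cysteine synthase AK070508 at -1.74.

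Nicotianamine aminotransferase makes precursors of the iron-chelating phytosiderophores of grasses. Its 2 tested cDNAs, both matched to barley naat-A, moved in opposite directions. AK060557 had 2.06, 2.33, 0.93 and 0.99, a mean of 1.58 ± 0.08 (adjusted p = 6.04e-06), and 2.57 with the deposited log ratio. AK107186 had -2.26, -1.94, -1.48 and -0.90, a mean of -1.65 ± 0.12 (adjusted p = 2.21e-05). All 4 arrays gave the same sign for each.

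Aminotransferases whose descriptions give no substrate held a further large rise. AK100259, a rice aminotransferase-like protein, gave 5.84, 6.34, 1.61 and 1.65. In wild type its log2 intensity was 7.60 and 7.14 on the antisense arrays and 10.99 and 11.15 on the dsRNAi arrays, and in the transgenic channels 13.44, 13.49, 12.60 and 12.81. The mean was 3.86 ± 0.10 (adjusted p = 4.01e-07), or 14.5-fold higher, with 68.2-fold in antisense and 3.09-fold in dsRNAi. AK064774, matched to a melon aminotransferase, rose with dsRNAi by 1.19 (adjusted p = 0.000799), at 1.15 and 1.23. Its antisense arrays were at 0.25 and -0.25. Between dsRNAi and antisense arrays, its wild type channels differed by -1.60 (adjusted p = 6.6e-05). The transgenic channels differed by -0.41, without passing (adjusted p = 0.228). The remaining rise was AK102306, at 0.44 ± 0.11 (adjusted p = 0.0146).

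Among aminotransferases of other pathways, 2 fell and 1 rose of 4 tested. Glutamine fructose-6-phosphate transaminase, which opens the route to amino sugars, is named here through a mouse match and fell by 0.74 ± 0.10 (AK105856, adjusted p = 0.000759). The glutamate semialdehyde aminotransferase of chlorophyll and haem synthesis fell by 0.75 ± 0.11 (AK064826, adjusted p = 0.000909). A NifS-like cDNA, of the enzyme family that releases sulphur from cysteine, rose by 0.41 ± 0.08 (AK098947, adjusted p = 0.00419).

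Cysteine synthase fixes sulphide into cysteine. Of 7 tested cDNAs, 1 rose and 2 fell. AK070508, described as rice rcs2, gave -1.70, -1.72, -1.83 and -1.72 and lay close together, with a mean of -1.74 ± 0.08 (adjusted p = 2.7e-06) and a 3.34-fold lower level. The deposited log ratio gave -2.63 and a normexp offset of 10 gave -2.15. Its description is shared by AK110984, which rose by 0.43 ± 0.08 (adjusted p = 0.00378), and AK067454, at 0.076 ± 0.11 (adjusted p = 0.628). AK071279 (rcs3) fell by 0.49 ± 0.10 (adjusted p = 0.00582), with 0.09 and -0.41 in antisense and -0.79 and -0.87 in dsRNAi. AK099598 (rcs1) had 0.62, 0.34, 0.01 and -0.28. Its antisense arrays lay above its dsRNAi arrays, and the mean of 0.17 ± 0.09 did not pass (adjusted p = 0.174). It rose with antisense alone (0.48, adjusted p = 0.0231), while its wild type channels were higher by 0.55 on the dsRNAi arrays (adjusted p = 0.0151).

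Downstream of cysteine, both tested methionine synthase cDNAs passed with dsRNAi only. AK065255 fell by 0.45 there (adjusted p = 0.04) and AK067726 by 0.54 (adjusted p = 0.0202), with antisense at 0.24 and 0.20. The difference between constructs passed for both (adjusted p = 0.0428 and 0.0326). On the dsRNAi arrays the wild type channels were higher by 0.70 and 1.11 (adjusted p = 0.00568 and 0.000533). The transgenic channels differed by 0.018 and 0.36, without passing (adjusted p = 0.974 and 0.273). S-adenosylmethionine synthetase makes the methyl donor that also feeds ethylene and polyamine synthesis. Its 2 cDNAs moved in opposite directions: AK071516 fell by 0.63 ± 0.08 (adjusted p = 0.000655) and AK103157 rose by 0.51 ± 0.10 (adjusted p = 0.00417). Gamma-glutamylcysteine synthetase, the first enzyme of glutathione synthesis, rose through 1 of 3 cDNAs (AK100428, 0.33 ± 0.09, adjusted p = 0.0185). Neither construct passed alone (adjusted p = 0.0974 and 0.0719), and the call was lost under 7 of 15 alternatives, over which the adjusted p ran from 0.0124 to 0.728. Among these were the fits without antisense replicate 1 (0.31, adjusted p = 0.0629) and without dsRNAi replicate 1 (0.25, adjusted p = 0.0831).

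Tryptophan synthase, which completes tryptophan and so lies upstream of auxin, fell in 4 of 6 tested cDNAs and rose in none, where 21.3% of all probes fell. All 3 beta-chain cDNAs were among them. AK072921 gave -1.09, -0.63, -0.76 and -0.56, a mean of -0.76 ± 0.10 (adjusted p = 0.000627). AK069187 (maize TSB2) fell by 0.57 ± 0.08 and AK072535 (maize TSB1) by 0.52 ± 0.08, with every array below 0 for both. Of the alpha-like cDNAs, AK072595 fell, at -1.14 and -1.15 with antisense against -0.07 and -0.39 with dsRNAi, and AK073440 and AK066734 did not pass.

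Among the remaining members, a tRNA-glutamine synthetase match (AK065125) fell by 0.49 ± 0.09. Another (AK061951), matched to lupin, had 0.34, 0.42, 0.12 and 0.01, all above 0, with a mean of 0.22 ± 0.08 (adjusted p = 0.0566), and rose by 0.38 with antisense alone (adjusted p = 0.0313). These enzymes load glutamine onto its tRNA for translation. Proline iminopeptidase (AK100825), a peptidase, fell by 0.34 ± 0.10. Histidinol-phosphate aminotransferase, of histidine synthesis, stood at -0.19 ± 0.08 (AK058999, adjusted p = 0.115). The repetitive proline rich protein (AK100217), a class linked to the cell wall rather than to amino acid metabolism, rose with antisense (0.69 and 0.66) and fell with dsRNAi (-1.03 and -1.07). It was the only member called in opposite directions by the constructs. Its wild type channels were higher by 1.58 on the dsRNAi arrays (adjusted p = 2.8e-05). The transgenic channels differed by -0.14, without passing (adjusted p = 0.667).

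The constructs were next compared with each other. The difference dsRNAi minus antisense passed for 26 of the 83 tested members, 10 higher and 16 lower, against 6.33% and 10.1% of all probes. The deposited log ratio gave 7 higher and 7 lower, median centring gave 0 and 1, and without dsRNAi replicate 2 there were 7 and 10. The largest differences were -4.46 ± 0.20 for AK100259 (adjusted p = 6.16e-05), -3.05 ± 0.28 for AK105963 (adjusted p = 0.000523) and -2.18 ± 0.16 for AK060423 (adjusted p = 0.000259). These are the 3 largest rises, and each was smaller with dsRNAi. For AK105963 the size rests in part on low wild type signal on both antisense arrays, not well above background on replicate 1. Alanine aminotransferase differed by 1.91 ± 0.39 (AK102488, adjusted p = 0.0144) and 1.69 ± 0.27 (AK059063, adjusted p = 0.0049), and OsGAD2 AK071556 by 1.61 ± 0.25 (adjusted p = 0.00488), their falls being smaller with dsRNAi. The value of AK071556 is again a lower bound, through the saturated wild type spot. No difference passed for nitrate reductase AK102363 (0.27 ± 0.16, adjusted p = 0.33), OsGAD1 (0.03 ± 0.18, adjusted p = 0.944) or cysteine synthase AK070508 (-0.06 ± 0.16, adjusted p = 0.839).

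**Figure D3:**
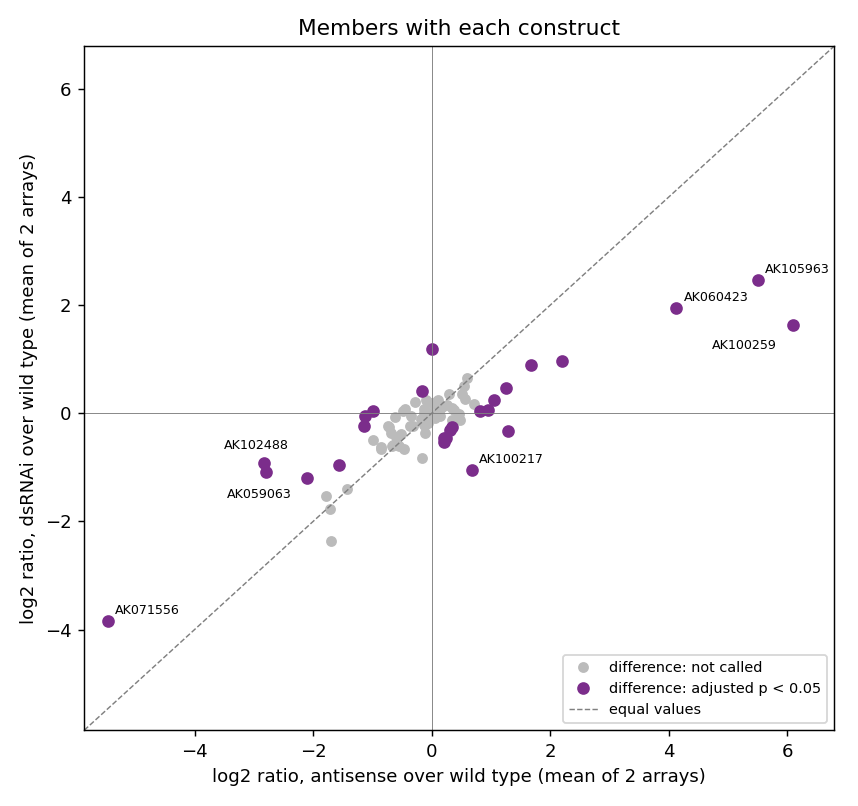
Log2 ratio with antisense (horizontal axis) against log2 ratio with dsRNAi (vertical axis), each the mean of 2 arrays, for the 83 tested cDNAs; purple points passed the test of the difference between constructs and the dashed line marks equal values. AK100259 (6.09 and 1.63) and AK105963 (5.50 and 2.46) lie far below the line, and AK100217 lies in the quadrant of opposite signs.

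Since each construct had its own wild type channels, the channels were compared separately. Between the wild type channels of dsRNAi and antisense arrays, 17 members were higher and 17 lower, against 16.5% and 15.9% of all probes. Between the transgenic channels 0 were higher and 1 was lower, against 1.34% and 1.14%, the single call being AK100259 at -0.76 (adjusted p = 0.0449). With no filter on dim probes 0 members passed in the transgenic channels. Of the 26 members that differed between constructs, 24 also passed in the wild type channels and 1 in the transgenic channels, and in 26 of 26 the wild type difference was the larger in size. Over all 2962 probes that differed between constructs, 88.8% passed in the wild type channels, 6.92% in the transgenic channels, and in 90.0% the wild type difference was the larger. The median size of the difference was 0.34 in the wild type and 0.18 in the transgenic channels for the members, and 0.29 and 0.15 for all probes. In the wild type channels AK100259 differed by 3.70 (adjusted p = 5.99e-07), AK105963 by 2.61 (adjusted p = 5.17e-05), AK060423 by 1.72 (adjusted p = 6.94e-06) and AK071556 by -1.88 (adjusted p = 0.00125). Ornithine aminotransferase AK099445 passed in neither set (0.42, adjusted p = 0.058, and -0.36, adjusted p = 0.254).

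**Figure D4:**
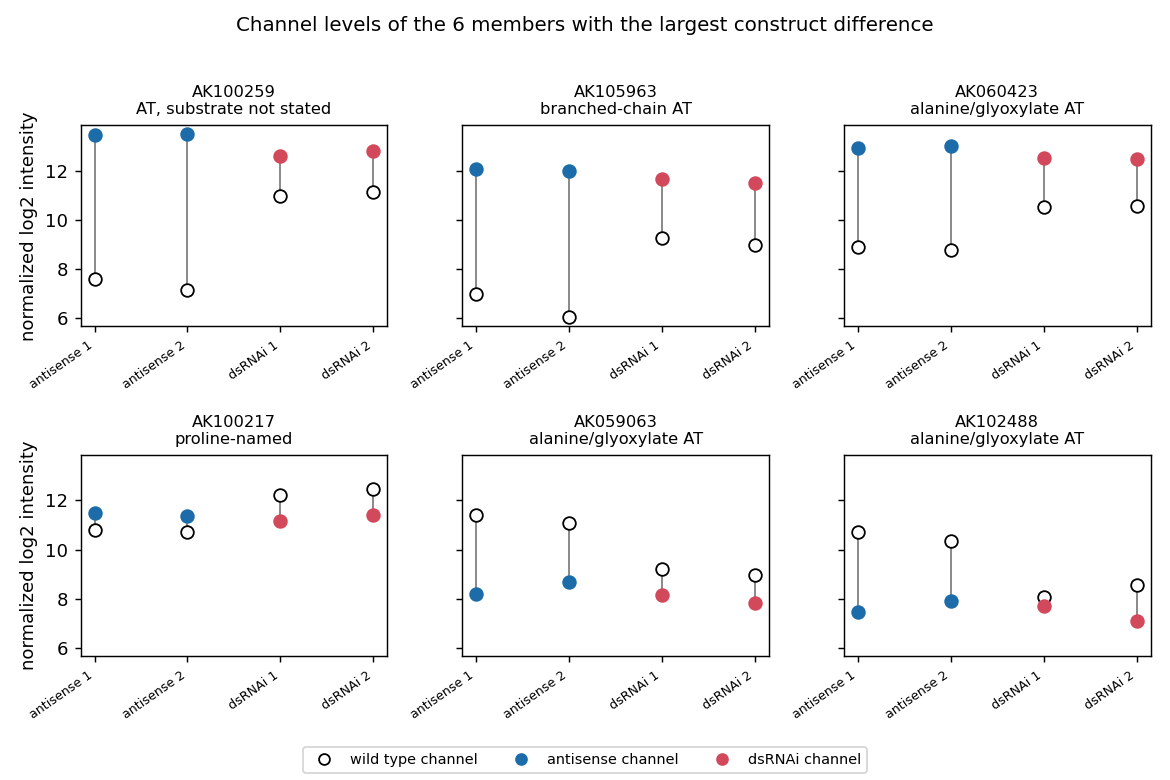
Normalized log2 intensity (vertical axis) in the wild type channel (open circles) and the transgenic channel (blue antisense, red dsRNAi) of each array, for the 6 members with the largest difference between constructs; grey lines join the channels of an array. For AK100259 the open circles lie at 7.60 and 7.14 on the antisense arrays and at 10.99 and 11.15 on the dsRNAi arrays, while filled circles stay between 12.60 and 13.49.

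**Figure D5:**
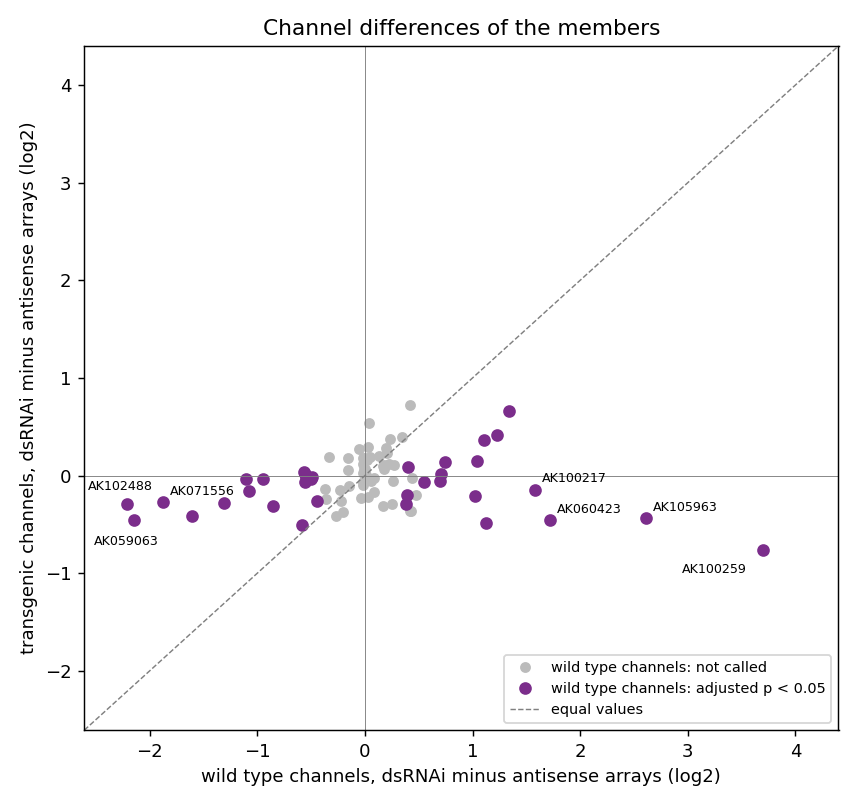
Difference dsRNAi minus antisense arrays (log2) in the wild type channels (horizontal axis) and in the transgenic channels (vertical axis) for the 83 tested cDNAs; purple points passed in the wild type channels and the dashed line marks equal differences. Points spread from -2.21 to 3.70 along the horizontal axis and stay between -0.76 and 0.72 on the vertical axis.

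Marker probes also moved. Of 47 tested meristem and MADS-box probes, 20 rose and 6 fell in the mean (all probes 20.5% and 21.3%). With antisense 17 rose and 8 fell (18.9% and 18.3%), and with dsRNAi 17 rose and 6 fell (11.2% and 14.6%). Their summed intensity was 73919 to 83966 in wild type and 86455 to 87584 in transgenic channels of the antisense arrays, and 69371 to 70051 and 86528 to 91614 on the dsRNAi arrays. Markers of other tissues differed between the pairs of arrays. Of 30 tested leaf and photosynthesis probes (34 listed, 3 of them never well above background), 19 were higher and 1 lower in the wild type channels of the dsRNAi arrays (all probes 16.5% and 15.9%). In the transgenic channels 17 were higher and 0 lower (1.34% and 1.14%). Their summed intensity was 20143 to 21701 in wild type and 23467 to 25516 in transgenic channels of the antisense arrays. On the dsRNAi arrays it was 56487 to 57335 and 43846 to 44546. Against wild type, 5 of the 30 rose and 6 fell in the mean of both constructs, shares below those of all probes. The constructs differed in this: with antisense 7 rose and 5 fell (all probes 18.9% and 18.3%), and with dsRNAi 1 rose and 7 fell (11.2% and 14.6%). Of 12 anther and pollen probes, 6 were never well above background, and 3 of the 6 tested rose in the mean, where 20.5% of all probes did. Their summed intensity was 6254 to 6625 in wild type and 10746 to 14107 in transgenic channels of the antisense arrays, and 10013 to 10667 and 11944 to 14383 on the dsRNAi arrays. Of 5 tested seed storage probes, 0 rose and 0 fell. The part of these tissues and cells in the members' values was not tested.

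Further steps of amino acid metabolism were read from 7 lists with 78 probes, of which 65 were tested, 9 rose and 18 fell in the mean. Over all tested probes 20.5% rose and 21.3% fell, the shares against which each list count below is set. The lists were chosen with earlier results of these data known, so their counts are not independent of those results. Of 7 tested cDNAs of amino acid breakdown (11 listed, 3 of them never well above background), 5 rose and 1 fell. Their median was 0.78, against -0.0016 for all probes. The largest rise was 4-hydroxyphenylpyruvate dioxygenase of tyrosine breakdown (AK058890), with 2.99, 2.85, 1.94 and 1.51 and a mean of 2.32 ± 0.10 (adjusted p = 2.06e-06). Beyond it, and named after their values were seen, isovaleryl-CoA dehydrogenase of leucine breakdown rose by 1.30 ± 0.08 (AK066314), and parts of the branched-chain keto acid dehydrogenase complex rose by 1.09 ± 0.08 (AK105761) and 0.78 ± 0.10 (AK064862). These enzymes act after the branched-chain aminotransferases. Methylcrotonyl-CoA carboxylase, also of leucine breakdown, fell by 0.25 ± 0.08 (AK061906, adjusted p = 0.0476).

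In aromatic amino acid synthesis 1 of 19 rose and 6 fell. Anthranilate synthase beta subunit, at the branch to tryptophan, fell by 1.66 ± 0.09 (AK107879), with -1.80, -1.52, -1.55 and -1.77. Shikimate kinase descriptions disagreed, with AK067948 rising by 1.11 ± 0.10 and AK109730, named after its value was seen, falling by 1.26 ± 0.08. In branched-chain amino acid synthesis 0 of 5 rose and 2 fell. Acetolactate synthase, the first enzyme of that route, had -0.34, -0.19, -1.44 and -1.19, a mean of -0.79 ± 0.09 (AK109628). Sulphur and aspartate family synthesis had 0 rises and 4 falls among 11, led by threonine synthase at -0.74 ± 0.08 (AK109336).

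The other steps of proline and arginine metabolism had 0 rises and 3 falls among 13, a share of falls near that of all probes. Arginine decarboxylase, which makes the polyamine precursor agmatine, was at -0.69 and -0.86 on the antisense arrays and at -4.32 and -4.0 on the dsRNAi arrays (AK058573). Its fall was far larger with dsRNAi, with a difference of -3.39 (adjusted p = 9.04e-05). That difference lay in the wild type channels (3.69) and not detectably in the transgenic channels (0.30, adjusted p = 0.456). In serine, glycine and histidine metabolism 1 of 6 rose and 2 fell, glycine decarboxylase T subunit rising by 0.54 ± 0.08 (AK099234) and its H subunit falling by 0.74 ± 0.12 (AK062851). In ureide and urea breakdown 2 of 4 rose, among them xanthine dehydrogenase of purine breakdown at 0.52 ± 0.08 (AK065099).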

How the data were processed

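Branching panicle RNA was hybridised on 4 two-colour Agilent arrays, grouped by construct (n = 2 each). Per the file headers, the deposited spot intensity values of both channels come from Agilent Feature Extraction (versions 8.1.1.1 for antisense and 9.1.3.1 for dsRNAi). The same deposited files hold a log10 ratio of red over green, which per the file headers had background correction and dye normalization. The series table holds deposited log2 ratios, of which processing and centring are not given in the sources used here. Its columns correlated with the scanner ratio at 0.959, 0.975, 0.839 and 0.852, which set scale and direction, and their medians, turned to transgenic over wild type, were -0.0046, -0.0366, 0.0842 and 0.0521 (antisense replicates 1 and 2, dsRNAi replicates 1 and 2). Dyes follow the label fields, and the labelling text of the exchanged arrays names the other dye. Replicate 1 of each construct has transgenic RNA in Cy5.

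Mean signals less median background were corrected with normexp (offset 50) and normalized by loess within arrays in limma 3.58.1 (R 4.3.3), leaving out controls and between 1 and 67 outlier spots per array. Probes whose signal stood well above background in 1 or both channels on 2 or more arrays were kept (18096), and 17997 with values on all 4 arrays were tested, with 1 coefficient per construct, eBayes and Benjamini-Hochberg adjustment at 0.05. Channels were compared after Aquantile with limma's separate channel fit (intraspot correlation 0.237). The fit was tested on simulated data with independent noise on each array and the same change on all 4 arrays. Effects shared by the arrays of a construct were not simulated. Of the cDNA accessions, 0 were in the reference gene table, so names are the files' own and no sequence was used here. Members and lists were chosen with earlier results of these data known. The text names the up to 12 largest rises and 12 largest falls past 0.05 with the same sign on 4 arrays, the 6 largest differences, the member of highest mean intensity in each role, and the largest rise and fall of each further list. Other members are named to account for a role, after their values were seen. Alternatives covered background correction, ratio source, normalization, filters, variance model, a replicate block, averaged arrays, a random block and each array left out. Precision is limited by the number of arrays. The random block used statmod 1.5.0, and figures used matplotlib 3.10.9 under Python 3.11.15.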

Additional observations from a re-analysis of the deposited data

Results flagged for a closer look

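Among the members named by rule, 14 differed between the constructs by the test of the difference itself (dsRNAi minus antisense, log2, limma's adjusted p under 0.05). The rises of AK100259 (-4.46), AK105963 (-3.05), AK060423 (-2.18), AK060557 (-1.24), AK108010 (-0.79) and AK099445 (-0.78) were smaller with dsRNAi. Falls were smaller with dsRNAi for AK102488 (1.91), AK059063 (1.69), AK071556 (1.61), AK107186 (0.91) and AK103586 (0.60), the value of AK071556 being a lower bound because a wild type spot was saturated. For AK105963 the wild type spot was not well above background on antisense replicate 1 and had a lower intensity on replicate 2. Both limit its antisense level. Opposite signs in the constructs were seen for the repetitive proline rich protein AK100217 (-1.72), methionine synthase AK065255 (-0.69) and glutamate dehydrogenase AK071839 (-0.61). The wild type channels differed between the pairs of arrays for 12 of the 14, the exceptions being both ornithine aminotransferases.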

How the results depend on the processing

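Over 36 named members and 15 alternatives (540 comparisons), 479 kept direction and side of the threshold, 48 kept direction without passing, 2 came to pass and 11 changed sign, all in 4 members that passed neither before nor then. AK071839 came to 0.017 (offset 10), 0.012 (deposited log ratio), 0.12 (series table) and 0.13 (median centring), AK099882 to 0.14 (median centring) and AK065255 to 0.026 (series table). Leaving out each array in turn, AK071839 ranged from -0.0082 to 0.0076, AK099882 from -0.077 to 0.051 and AK105755 from -0.083 to 0.32. Averaging both pairs of arrays, which leaves 1 value per construct, gave 0 calls in limma for the mean, with 28 members under 0.05 before adjustment. A random block for construct (correlation 0.413) left 22 members, 7 up and 15 down. Median centring in place of loess gave 13 (mean), 10 (antisense), 3 (dsRNAi) and 1 (difference), of which the cause was not tested. For the difference, the deposited log ratio and the series table each gave 14. Without dsRNAi replicate 2, 19 passed for dsRNAi and 17 for the difference. Without each array in turn, calls ranged from 41 to 45 (mean), 34 to 47 (antisense), 19 to 32 (dsRNAi) and 17 to 20 (difference). With no filter on dim probes 0 passed in the transgenic channels. Same-numbered arrays share only a dye orientation, and this as a replicate block gave 46, 47, 32 and 28 in the same order, none moved by over 1.5 times. Signal over background limits the 12 dim members.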
